A study of Mus musculus with 4 samples.

Results

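The genes described here are 10 regulators of the G1 phase of the cell cycle, chosen by name: the D-type cyclins Ccnd1, Ccnd2 and Ccnd3, the E-type cyclins Ccne1 and Ccne2, the kinase Cdk4, and the inhibitors Cdkn1a (p21), Cdkn1b (p27), Cdkn1c (p57) and Cdkn2a (p16Ink4a and p19Arf). They are 10 of 12394 genes with a probe set of their own, and 22 of 22690 probe sets carry their names. Their levels were read on 4 Affymetrix arrays of mouse mammary tissue. The groups were mammary tumor of Sca-1 knockout mice, mammary tumor of wild-type mice, mammary gland of Sca-1 knockout mice and mammary gland of wild-type mice. All mice were female, nulliparous and C57BL/6, the wild-type ones being littermates of the same age. Tumor-bearing mice had received 15 mg of MP (Depo-Provera, a depot progestin) under the skin and then the carcinogen DMBA by gavage, 1 mg in cottonseed oil once a week for 4 weeks. The glands were labelled 6 weeks and carry no treatment label of their own, although the same treatment text accompanies all 4 samples. No age is stated for the tumors. Each group was 1 pool of RNA from 5 mice on 1 array. There were therefore no replicates and no test, and every difference below is a difference between 2 arrays.

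A cell in G1 is driven towards S phase by D-type cyclins, which bind Cdk4 or Cdk6 and start the phosphorylation of the retinoblastoma protein. E-type cyclins with Cdk2 complete it, and E2F transcription factors are then free to switch on the genes of DNA replication. The inhibitors act in 2 families. The Ink4 proteins, p16Ink4a among them, bind Cdk4 and Cdk6, while p21, p27 and p57 bind cyclin-kinase complexes more broadly. The Cdkn2a locus also encodes p19Arf, which stabilises p53, and Cdkn1a is itself a well-known p53 target. In the mouse mammary gland, cyclin D1 is needed for alveolar growth in pregnancy, and its overexpression there leads to tumors.

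The values are linear signals, each array having been scaled to a trimmed mean of 500. Differences are on the log2(signal + 27.3) scale, whose offset is the lower quartile over the 4 arrays. This scale understates differences of dim genes. "Higher" and "lower" as counts mean at least 2-fold. A signal of 168, the median of all values, served as a floor, and 8283 genes reached it on at least 1 array. Of the 10 genes 9 did so, but Ccne2 did it on the knockout tumor array alone, Cdkn2a on the tumor arrays alone and Cdkn1c on the gland arrays alone. Ccne1 stayed below the floor on all 4 arrays. Of the 22 probe sets 13 were above the floor on all arrays and 3 on none. Signals of different genes are not set against each other, since probe sets differ in brightness.

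The arrays differed in ways that touch these values. The signal of control probe sets at a transcript's 3' end over its 5' end, a gauge of RNA integrity, was for Actb 1.29 in the knockout tumor, 1.23 in the wild-type tumor, 1.61 in the knockout gland and 2.35 in the wild-type gland. For Gapdh it was 0.876 in the knockout tumor, 0.768 in the wild-type tumor, 0.988 in the knockout gland and 1.72 in the wild-type gland. Tissue makeup differed far more between tumor and gland. The summed signal of 5 of 7 white adipocyte markers was 2548 in the knockout tumor and 3786 in the wild-type tumor, against 26953 in the knockout gland and 28975 in the wild-type gland. That of 5 skeletal muscle markers was 1404 in the knockout tumor and 633 in the wild-type tumor, against 29214 in the knockout gland and 30546 in the wild-type gland, with Myh4 at 0.6 in the wild-type tumor. That of 5 luminal epithelial markers was 40389 in the knockout tumor and 36445 in the wild-type tumor, against 20464 in the knockout gland and 24521 in the wild-type gland. That of 6 of 7 markers of dividing cells was 5068 in the knockout tumor, 2103 in the wild-type tumor, 1065 in the knockout gland and 565 in the wild-type gland. Of these markers, 6 were at or above the floor described above in the knockout tumor, 3 in the wild-type tumor, 3 in the knockout gland and 0 in the wild-type gland. The deleted gene itself was not analysed here.

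**Figure D1:**
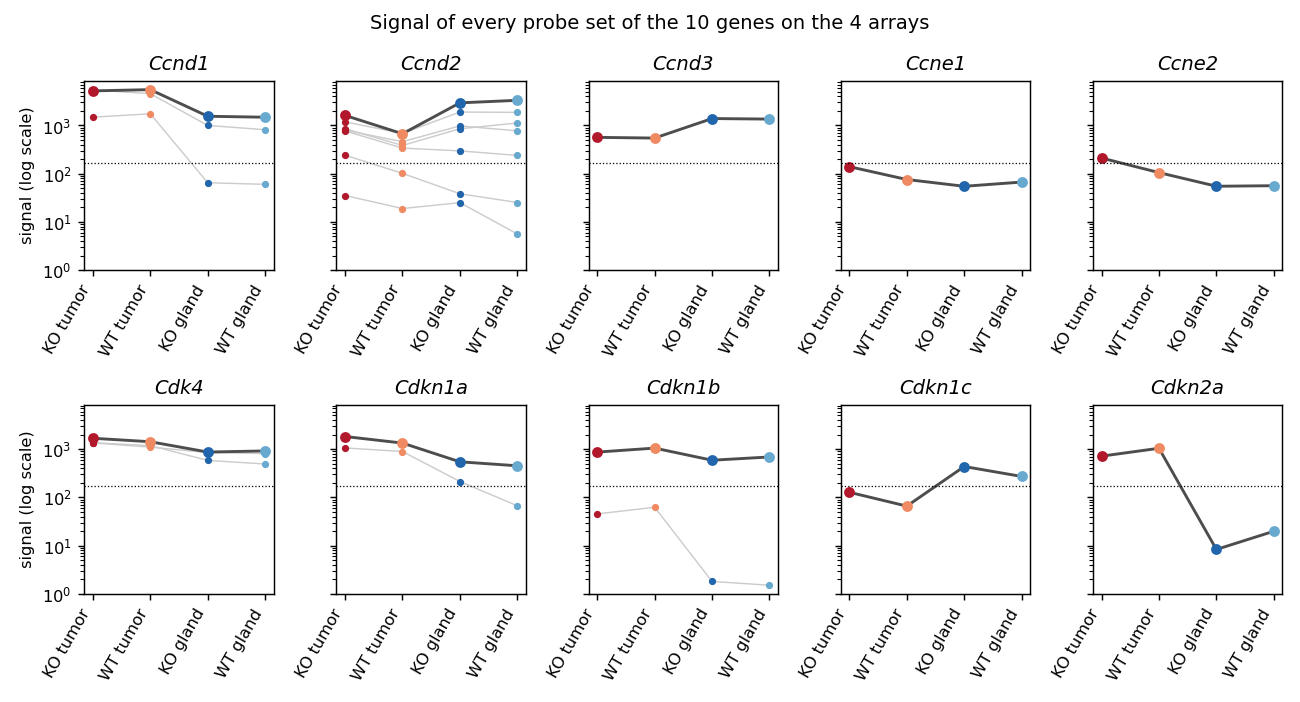
Signal (log axis) of every probe set of the 10 genes on the knockout tumor, wild-type tumor, knockout gland and wild-type gland arrays. The dark line joins the probe set that stands for the gene, pale lines join its other probe sets, the dotted line is the floor at 168, and signals under 1 would be drawn at 1. Cdkn2a is between 716 and 1043 in the tumors and between 8.3 and 19.8 in the glands.

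The comparison of tumor with gland asks how the G1 machinery of the induced tumors differed from that of gland tissue, in each genotype. Age cannot be told apart from tumor state here, nor can MP and DMBA if the glands went without them. Cyclin D1 and the inhibitors Cdkn1a and Cdkn2a were higher in the tumors of both genotypes, and cyclin D3 and the inhibitor Cdkn1c were lower in both. In knockout, 4 of the 9 genes above the floor were higher (Ccnd1, Ccne2, Cdkn1a and Cdkn2a) and 2 lower (Ccnd3 and Cdkn1c), beside 12.4% of all 8283 genes higher and 17.9% lower. In wild type, 3 were higher (Ccnd1, Cdkn1a and Cdkn2a) and 3 lower (Ccnd2, Ccnd3 and Cdkn1c), beside 12.9% of all genes higher and 16.6% lower. Ccne2, Cdkn1c and Cdkn2a had passed the floor only through the side on which they were high, so these counts do not stand as support for a difference. The spread of such a difference, judged from pairs of probe sets of 2766 genes, was 0.57 (SD) in knockout and 0.64 in wild type on the log2 scale. It covers neither mice nor pools.

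**Figure D2:**
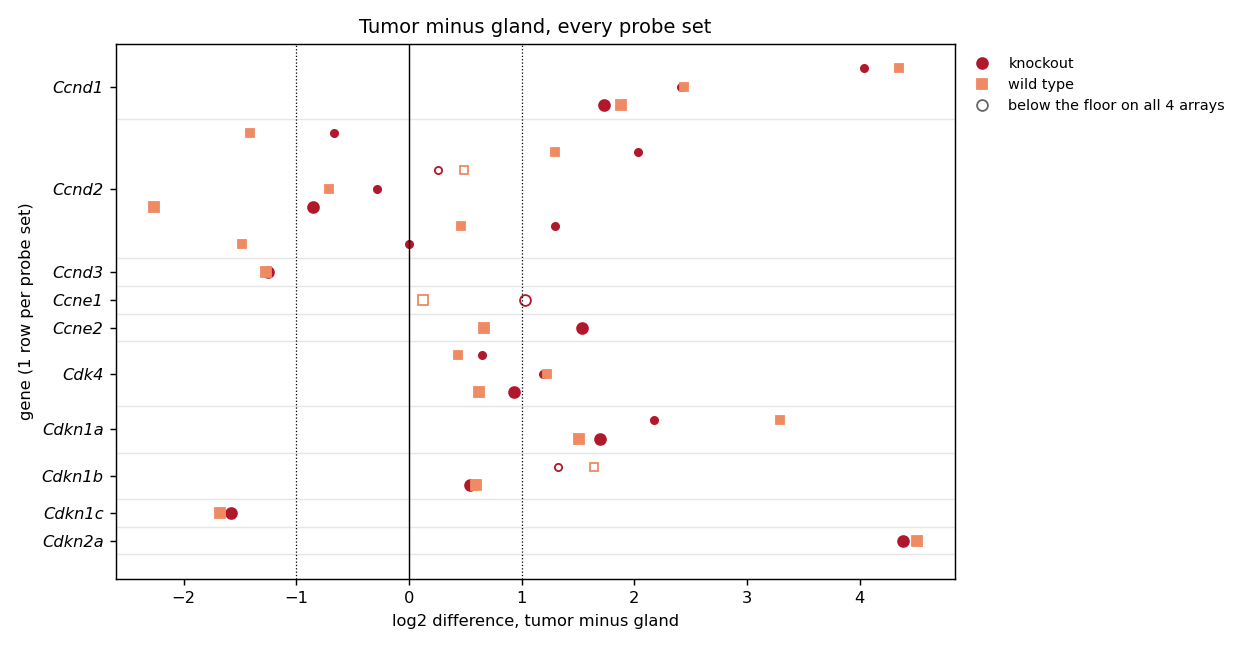
Log2 difference of tumor minus gland for each of the 22 probe sets, 1 row per probe set, with circles for knockout and squares for wild type. Larger marks stand for the gene, open marks were below the floor on all 4 arrays, and dotted lines mark 2-fold. All probe sets of Ccnd1, Cdk4, Cdkn1a, Cdkn1b and Cdkn2a lie right of 0, those of Ccnd3 and Cdkn1c lie left of it, and those of Ccnd2 lie on both sides.

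Cdkn2a, the locus of p16Ink4a and p19Arf, differed most of the 10 genes at this offset. Its single probe set had a signal of 716 in the knockout tumor and 1043 in the wild-type tumor, against 8.3 in the knockout gland and 19.8 in the wild-type gland. Both tumors thus lay far above the floor and both glands far below it. The log2 difference was 4.38 in knockout (20.9-fold) and 4.51 in wild type (22.7-fold). The gland signals lay under the offset, so the size depends on it. With an offset of 1 the differences were 6.27 in knockout and 5.65 in wild type, and with the pooled median as offset 2.33 and 2.69. The 2 products of the locus start from separate first exons and share later ones, and this probe set was not assigned to either. The 2 start sites that RefSeq gives lie 12427 bases apart on chromosome 4 (GRCm38.p6, minus strand). The 250 bases before each are shown because both hold a match to the E2F motif TTTNNCGC, searched on both strands, which was found in the 250 bases before 4.28% of 32851 RefSeq starts. Capitals mark the match, and sequences run 5′ to 3′ on the gene's strand. The first lies at chr4:89294620-89294869, upstream of the gene's other start, and the second at chr4:89282193-89282442.
Cdkn2a upstream start: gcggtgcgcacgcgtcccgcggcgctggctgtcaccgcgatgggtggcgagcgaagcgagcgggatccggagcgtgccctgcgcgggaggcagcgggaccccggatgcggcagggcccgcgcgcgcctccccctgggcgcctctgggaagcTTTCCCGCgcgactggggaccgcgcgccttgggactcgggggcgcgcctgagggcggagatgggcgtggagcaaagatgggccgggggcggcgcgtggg
Cdkn2a downstream start: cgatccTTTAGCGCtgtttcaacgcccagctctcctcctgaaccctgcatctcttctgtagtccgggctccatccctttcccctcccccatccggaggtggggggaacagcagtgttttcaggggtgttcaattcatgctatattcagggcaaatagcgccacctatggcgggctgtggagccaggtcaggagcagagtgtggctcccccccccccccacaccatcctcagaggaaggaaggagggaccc

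The match lies 99 bases before the upstream start and 244 bases before the downstream one, counted to its first base. RefSeq stretches of this kind were matched for 6 of the 10 genes, 9 in all, and no other one of the 9 held this motif. GGGCGG, the letters of an Sp1 site, was in 7 of the 9, against 32.7% of all starts. Between 54.0% and 78.4% of the bases in the 9 were G or C, and no share was taken among stretches of like content. These are matches of letters and not shown to be bound.

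Ccnd1, the D-type cyclin best known in mammary epithelium, was higher in the tumors by all 3 of its probe sets. The brightest had signals of 5217 in the knockout tumor and 5543 in the wild-type tumor, against 1553 in the knockout gland and 1483 in the wild-type gland. Both tumors lay above both glands and the genotypes lay close together, with differences of 1.73 in knockout (3.32-fold) and 1.88 in wild type (3.69-fold). A dimmer probe set was below the floor in the glands, at 64.7 in knockout and 60.1 in wild type, and gave 4.04 in knockout and 4.35 in wild type. Tumor lay above gland in every probe set, while the size and the order of the tumors differed among them. Luminal and basal epithelial markers lay higher on the tumor arrays as well. In bulk tissue, a change in the share of a cell type and a change of RNA per cell cannot be told apart.

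Cdkn1a, which encodes p21, was higher in the tumors by both of its probe sets. The brighter had signals of 1831 in the knockout tumor and 1338 in the wild-type tumor, against 546 in the knockout gland and 452 in the wild-type gland. These are differences of 1.70 in knockout (3.24-fold) and 1.51 in wild type (2.85-fold). The other had 1062 in the knockout tumor and 894 in the wild-type tumor, against 213 in the knockout gland and 66.9 in the wild-type gland. Its differences were 2.18 in knockout and 3.29 in wild type, the last against a gland signal below the floor. Of 10 other p53 targets above the floor, 1 was higher and 1 lower in each genotype. Over all genes 12.4% were higher and 17.9% lower in knockout, and 12.9% higher and 16.6% lower in wild type. The 1 higher was Perp, a desmosomal protein of stratified epithelium, by 8.40-fold in knockout and 9.67-fold in wild type. The median of the 10 was -0.26 in knockout, where the sign turned under median centring and with the floor set on the mean, and -0.16 in wild type. Over all genes it was -0.04 in knockout and -0.03 in wild type. Mdm2, the ubiquitin ligase that p53 induces against itself, differed by -0.79 in knockout and -0.67 in wild type. The 1 lower in wild type was Bbc3 (Puma), a pro-apoptotic protein, with 94.0 in the knockout tumor and 25.4 in the wild-type tumor, against 161 in the knockout gland and 191 in the wild-type gland. It passed the floor through the wild-type gland alone. The 1 lower in knockout was Btg2, an antiproliferative factor, by 2.07-fold. No p53 target of the list was lower in knockout under median centring, quantile normalization or cyclic loess. With the pooled median as offset, or by the mean of all probe sets, none was lower either. RefSeq gives Cdkn1a 2 starts, 2790 bases apart on chromosome 17. The 250 bases before the first, at chr17:29090729-29090978 on the plus strand (GRCm38.p6), are shown because they hold a 20-base match to the p53 consensus with 1 mismatch, in capitals. Such a match, with at most 1 mismatch and no spacer, was in 0.0761% of the 32851 stretches.
Cdkn1a upstream start: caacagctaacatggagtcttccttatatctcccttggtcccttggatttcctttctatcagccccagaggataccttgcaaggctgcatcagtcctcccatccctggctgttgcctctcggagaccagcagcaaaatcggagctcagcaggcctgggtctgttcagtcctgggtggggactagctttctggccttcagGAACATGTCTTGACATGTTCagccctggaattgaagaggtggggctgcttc

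Cdk4, the catalytic partner of the D-type cyclins, was higher in the tumors in all 3 probe sets, by less than 2-fold in 2 of them. The brightest had signals of 1684 in the knockout tumor and 1427 in the wild-type tumor, against 871 in the knockout gland and 920 in the wild-type gland. The differences over the 3 probe sets were between 0.65 and 1.19 in knockout and between 0.43 and 1.22 in wild type. Cdkn1b, which encodes p27, stayed within 2-fold by its bright probe set. That one had 869 in the knockout tumor and 1053 in the wild-type tumor, against 590 in the knockout gland and 689 in the wild-type gland, which are differences of 0.54 in knockout and 0.59 in wild type. Its other probe set was below the floor on all arrays, at 62.3 or less.

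Ccnd3, the D-type cyclin prominent in lymphocytes and differentiated tissue, was lower in the tumors. Its probe set had 567 in the knockout tumor and 548 in the wild-type tumor, against 1391 in the knockout gland and 1357 in the wild-type gland. The tumors lay below the glands by 1.26 in knockout (2.39-fold) and 1.27 in wild type (2.41-fold), and the genotypes were nearly equal in either tissue. Cdkn1c, an imprinted gene whose product p57 is found in differentiating cells, had 128 in the knockout tumor and 65.8 in the wild-type tumor, against 437 in the knockout gland and 271 in the wild-type gland. Its differences were -1.58 in knockout and -1.68 in wild type (3.21-fold), with both tumors below the floor. Adipocyte, muscle and lymphocyte markers were lower on the same arrays. The summed signal of 5 of 6 B cell markers was 155 in the knockout tumor and 179 in the wild-type tumor, against 3701 in the knockout gland and 1375 in the wild-type gland. The part of these cells in the levels of Ccnd3 and Cdkn1c was not tested.

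The E-type cyclins were dim. Ccne2 had 211 in the knockout tumor and 105 in the wild-type tumor, against 54.8 in the knockout gland and 56.2 in the wild-type gland. Its knockout difference was 1.54 (2.90-fold) and its wild-type difference 0.67, between 2 signals below the floor. Ccne1 had 140 in the knockout tumor and 75.6 in the wild-type tumor, against 54.7 in the knockout gland and 66.9 in the wild-type gland. All 4 values are below the floor, so no fold is given. In both genes the knockout tumor held the highest signal, as it did for the dividing-cell markers above, whose part in this was not tested.

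Ccnd2, which encodes cyclin D2, gave no single answer for tumor against gland. It has 7 probe sets, of which 6 reached the floor. The brightest had 1619 in the knockout tumor and 672 in the wild-type tumor, against 2947 in the knockout gland and 3326 in the wild-type gland, with differences of -0.85 in knockout and -2.26 in wild type. Another probe set had 770 in the knockout tumor and 339 in the wild-type tumor, against 297 in the knockout gland and 239 in the wild-type gland, with differences of 1.30 and 0.46 in the same order of genotypes. Over the 7 probe sets, 4 were positive and 3 negative in knockout and 3 were positive and 4 negative in wild type. The positive ones include 1 below the floor on all 4 arrays and 1 that reached it in the knockout tumor alone. In knockout they also include 1 at 0.0028. Besides the brightest, a probe set at -0.66 in knockout and -1.42 in wild type was negative in both genotypes. So was another at -0.29 in knockout and -0.71 in wild type, and these lay above the floor on all 4 arrays. Averaged over its probe sets, the knockout difference turned to 0.26 and the wild-type one shrank to -0.52. Which transcript forms each probe set reads was not tested.

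**Figure D3:**
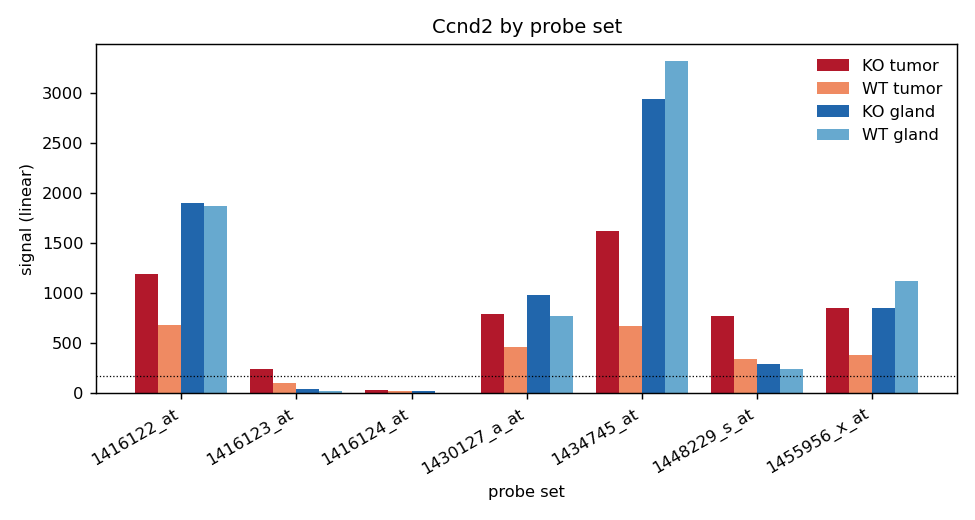
Signal (linear axis from 0) of the 7 Ccnd2 probe sets on the knockout tumor, wild-type tumor, knockout gland and wild-type gland arrays, with the floor at 168 dotted. The knockout tumor bar is taller than the wild-type tumor bar in each of the 7, while the gland bars are taller than the tumor bars in some probe sets and shorter in others.

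Knockout was then set against wild type, within tumors and within glands, to see which of these genes differed when Sca-1 was absent. In the tumors, Ccnd2 was the one gene of the 9 above the floor past 2-fold and it was higher in knockout, beside 2.12% of all genes higher and 1.94% lower. In the glands none of the 9 was past 2-fold in either direction, beside 1.11% of all genes higher and 0.254% lower. When each array was centred on its median, all genes split into 0.534% higher and 0.474% lower in the glands, so that the balance of directions depends on the scaling. The spread judged from pairs of probe sets was 0.23 in the tumors and 0.26 in the glands (SD, log2 scale). The 4 comparisons share arrays, each array entering 2 of them, so they are not independent.

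Ccnd2 was higher in the knockout tumor than in the wild-type tumor in 7 of 7 probe sets. These all read the same 2 RNA pools and are not replicates. Among the pairs of probe sets of 2766 genes, 75 were past 2-fold here by the brighter one, and 98.7% of these agreed in sign. The Ccnd2 differences lay between 0.44 and 1.23, the smallest in a probe set below the floor on all 4 arrays. Of the 4 probe sets past 2-fold, 1 passed the floor through the knockout tumor alone, at 241 against 101 in the wild-type tumor. By the brightest, the knockout tumor had 1619 and the wild-type tumor 672, a difference of 1.23 (2.35-fold). The mean over all probe sets gave 0.93. The same arrays differed in other markers too. Dividing-cell markers summed to 5068 in the knockout tumor and 2103 in the wild-type tumor, and 6 fibroblast markers to 15240 in the knockout tumor and 24448 in the wild-type tumor. Keratinising epithelium markers, 7 in all, summed to 426 in the knockout tumor and 6127 in the wild-type tumor. Skeletal muscle markers, 5 in all, summed to 1404 in the knockout tumor and 633 in the wild-type tumor. Of these 5, 3 were below the floor in both tumors. The part of all these markers in the Ccnd2 difference was not tested. In the glands 5 probe sets were positive and 2 negative, between -0.39 and 0.67. The brightest probe set stands for the gene, and by the mean over all of them the gland difference was 0.15. The difference between the tumors exceeded that between the glands by 1.41 in the brightest probe set. No gene of the 9 reached 4-fold in this difference of differences, a size that 1.05% of all genes had.

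**Figure D4:**
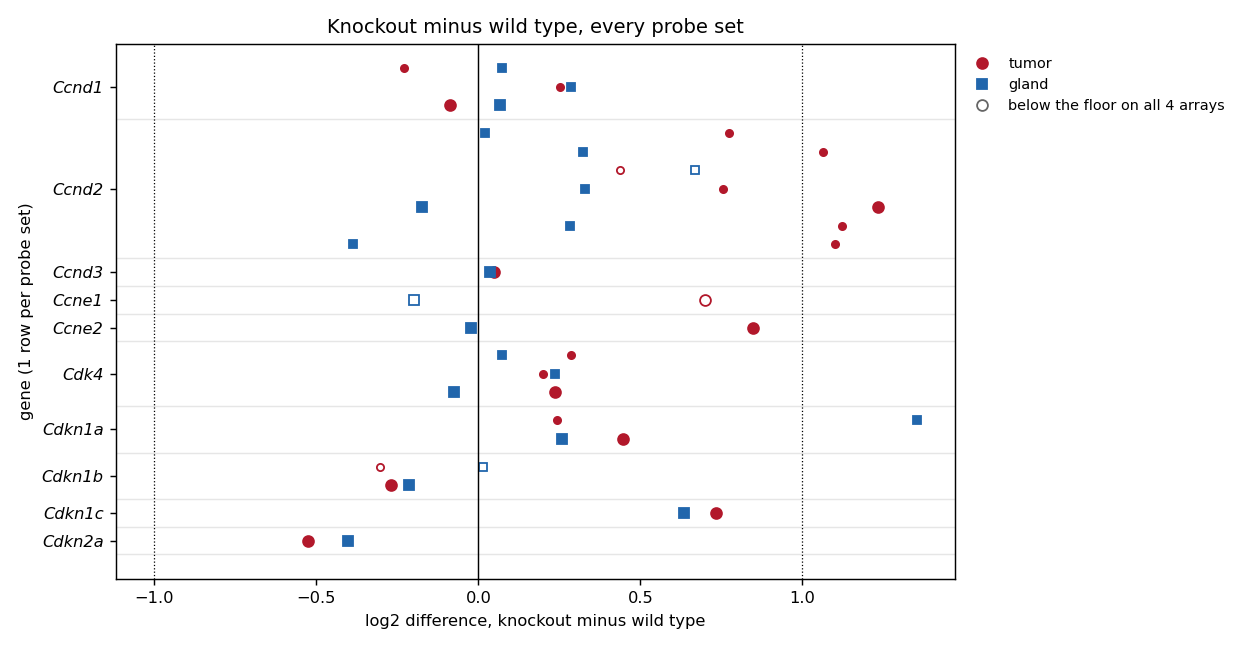
Log2 difference of knockout minus wild type for each of the 22 probe sets, with circles for tumor and squares for gland. Larger marks stand for the gene, open marks were below the floor on all 4 arrays, and dotted lines mark 2-fold. In tumor, 4 Ccnd2 probe sets lie beyond 2-fold, and in gland a single Cdkn1a probe set does.

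The E-type cyclins also had their highest signals in the knockout tumor. Ccne2, with 211 in the knockout tumor and 105 in the wild-type tumor, differed by 0.85, and Ccne1, at 140 in the knockout tumor and 75.6 in the wild-type tumor, lay below the floor in both. In the glands the 2 genes differed by -0.02 and -0.20 between signals below the floor. Among the inhibitors, Cdkn2a was lower in the knockout tumor, at 716 against 1043 in the wild-type tumor, a difference of -0.53 in its single probe set, which is within 2-fold. The part of the keratinising epithelium markers in this value was not tested.

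Cdkn1c was brighter in knockout in both tissues by less than 2-fold. The glands, both above the floor, had 437 in knockout and 271 in wild type, a difference of 0.64, and the tumors had 128 in knockout and 65.8 in wild type, both below it. Cdkn1a differed by 0.44 in the tumors and 0.26 in the glands by its brighter probe set. Its other probe set had 213 in the knockout gland and 66.9 in the wild-type gland, a difference of 1.35 that the brighter one did not share. The wild-type gland array was also the one with the highest 3' to 5' ratio of both controls, and the part of RNA integrity in this gap was not tested. Ccnd1, Ccnd3, Cdk4 and Cdkn1b differed by 0.30 or less in size in every probe set and either tissue. For Ccnd3 the differences were 0.05 in tumor and 0.04 in gland.

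Genes that act beside the 10 were followed in a list of 29 other G1/S regulators, of which 23 were above the floor. In tumor against gland, 8 were higher and 2 lower in knockout, and 5 were higher and 3 lower in wild type, with medians of 0.58 in knockout and 0.42 in wild type. Over all genes 12.4% were higher and 17.9% lower in knockout and 12.9% higher and 16.6% lower in wild type, with medians of -0.04 in knockout and -0.03 in wild type. Ccna2, the cyclin of S phase and G2, was 5.98-fold higher in knockout (1328 in the tumor and 199 in the gland) and 2.86-fold in wild type (479 in the tumor and 150 in the gland, which is below the floor). E2f8, an atypical E2F repressor counted as higher in both genotypes, had 213 in the knockout tumor and 106 in the wild-type tumor, against 66.4 in the knockout gland and 14.5 in the wild-type gland. It passed the floor through the knockout tumor alone. Rb1, the retinoblastoma gene, was 2.55-fold higher in knockout and differed by 0.48 in wild type. E2f4, the E2F that represses in resting cells, had 16.8 in the knockout tumor and 25.4 in the wild-type tumor, against 223 in the knockout gland and 263 in the wild-type gland. It passed the floor through the glands alone, and with tumor signals under the offset its differences of -2.50 in knockout and -2.46 in wild type depend on the offset. Cdk2, the partner of the E-type cyclins, was 2.97-fold lower in wild type and differed by -0.80 in knockout. Skp2, counted as higher in both genotypes, and Cdkn2b, counted as higher in knockout, passed the floor through the tumors alone. With these, E2f8 and E2f4 among them, the counts of this list do not stand as support for a difference.

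Between genotypes, 1 of the 23 was higher in the knockout tumor, Ccna2 (2.68-fold), and none was lower, beside 2.12% of all genes higher and 1.94% lower. The median was 0.28 in this list and 0.01 over all genes. Myc, a growth-promoting transcription factor, had 890 in the knockout tumor and 485 in the wild-type tumor, a difference of 0.84, and Rbl1 (p107) differed by 0.88. In the glands 1 of 23 was past 2-fold, beside 1.11% of all genes higher and 0.254% lower, and that was E2f8, between 2 signals below the floor. The list's gland median of 0.03 turned negative under median centring.

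Of 17 genes that E2F switches on at S phase, 14 were above the floor. In tumor against gland 9 were higher and none lower in knockout, and 7 higher and none lower in wild type, with medians of 1.26 in knockout and 1.02 in wild type, beside the shares of all genes given above for the same comparison. Between genotypes 5 were higher in the knockout tumor and none lower, beside 2.12% of all genes higher and 1.94% lower. In the glands 2 were past 2-fold and none lower, beside 1.11% higher and 0.254% lower, and both were between signals below the floor. These are Mcm5, with 166 in the knockout gland and 54.5 in the wild-type gland, and Tk1, with 104 in the knockout gland and 35.9 in the wild-type gland. The list's medians between genotypes were 0.94 in tumor and 0.38 in gland. Over all genes the medians were 0.01 in both tissues. Rrm2, a subunit of ribonucleotide reductase, had 1929 in the knockout tumor, 670 in the wild-type tumor, 286 in the knockout gland and 149 in the wild-type gland. Mcm5, part of the replicative helicase, had 441 in the knockout tumor and 136 in the wild-type tumor, the last below the floor. Tk1, thymidine kinase, had 703 in the knockout tumor and 361 in the wild-type tumor, with both glands below the floor. The gland median was 0.15 under median centring. Of the 14, Mcm5, Cdc6 and Pola1 passed the floor through the knockout tumor alone, and Tk1 through the tumors alone. The counts of this list therefore do not stand as support for a difference either. The dividing-cell markers moved with this list and with Ccna2, and their part in it was not tested. Mki67 is in both the E2F and the dividing-cell lists, and Ccna2 in both the G1/S and the dividing-cell lists, so they are not separate readings.

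**Figure D5:**
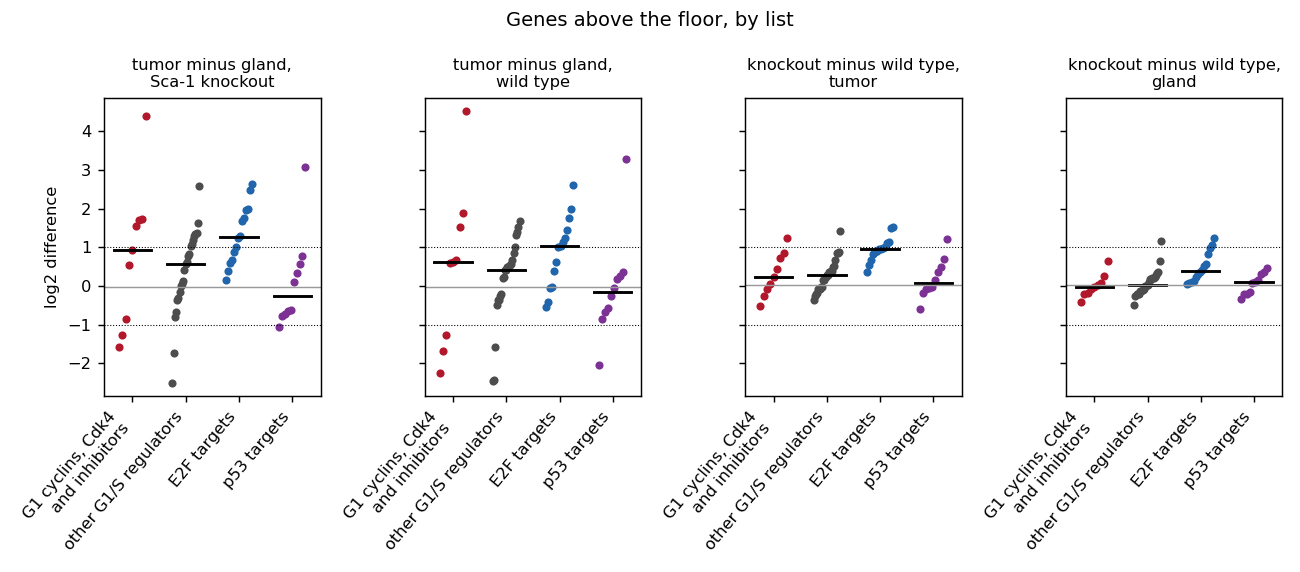
Log2 differences of the genes above the floor in 4 lists, with a panel for each comparison. Points are genes, black bars are list medians, the grey line is the median of all 8283 genes and dotted lines mark 2-fold. The E2F targets have the highest median of the 4 lists in each panel, at 1.26, 1.02, 0.94 and 0.38 from left to right.

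Likeness of pattern was measured as the Euclidean distance over the 4 arrays between log2 values centred on each gene's mean, so that 4 points carry each comparison. Nearest to Ccnd1 were Irx3 (0.05), Slc28a3 (0.07) and B9d1 (0.08). Nearest to Cdkn1a were Tgfb3, Bnipl and Il17re (0.09 to 0.10), and nearest to Ccnd3 were Stx2, Fggy and Tmem43 (0.03 to 0.05). Cdkn1c lay nearest to Slc2a3, Cd5 and Stat5a (0.14 to 0.19). Ccne2 lay nearest to Col9a2, Ncald and Ncapg2 (0.06 to 0.15). At larger distances lay Bbc3, Csrp2 and Fas for Ccnd2 (0.22 to 0.27) and Calml3, Mia and Chil1 for Cdkn2a (0.30 to 0.54). The distance is not scaled to a gene's log2 range over the 4 arrays, so a larger one need not mean a looser likeness. That range was 4.91 for Cdkn2a, 2.32 for Cdkn1c, 2.26 for Ccnd2 and 1.30 for Ccnd3. Calml3 had 1245 in the knockout tumor and 1872 in the wild-type tumor, against 52.5 in the knockout gland and 59.5 in the wild-type gland.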

How the data were processed

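Biotin-labelled cRNA of 4 RNA pools, each from equal amounts of RNA of 5 mice, was hybridised to Affymetrix arrays, per the labels' protocols. The authors deposited intensity as linear signals of 22690 probe sets, including 64 controls, and the sources used here name no software for them. Each array had a mean of 500 after leaving out 2% at each end.

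Symbols were taken from the platform's annotation and brought up to date through gene identifiers for 20364 of 20393 probe sets with 1 symbol. The 691 probe sets with several symbols and the 1606 not listed were not used. No probe set of the 10 genes carried several symbols. Signals were set on the log2(signal + 27.3) scale with Python 3.11.15 and pandas 2.3.3. The probe set with the highest mean stood for its gene. Genes were compared where the highest of 4 values was at or above 168. Cyclic loess was run with limma 3.58.1. The calling step was run on simulated data, with a noise set by hand. That noise was smaller than the spread between probe sets for tumor against gland, so the run does not gauge the calls made here.

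All probe sets of the 10 genes are described. From the other lists, genes were taken among the 6 largest differences per comparison, while Pola1 was named after its values were seen. The genes and lists were chosen with earlier results of these data known. Upstream stretches came from RefSeq on GRCm38.p6, and stretches for Ccnd1, Ccnd2, Ccne2 and Cdkn1c were not used here. With 1 array per group no p-value is given, and precision is limited by having 4 arrays.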

Additional observations from a re-analysis of the deposited data

How the results depend on the processing

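Across 9 alternatives (2 other offsets, 3 other scalings, 2 other choices of probe set and 2 other floors), 6 of the 13 differences past 2-fold stayed past it under each. The 6 are those of Ccnd1 and Cdkn1a between tumor and gland in both genotypes, Ccnd3 in wild type and Cdkn1c in knockout. The 2 of Cdkn2a stayed past it under the alternatives that kept the gene, which falls below a floor set on the mean, and the other 5 were lost under 1 alternative or more. All 13 kept their sign wherever the gene was above the floor. Of the differences within 2-fold, 5 passed it under some alternative, that of Cdkn2a in the glands being given below. The others were for tumor against gland. In knockout, Cdk4 reached 1.26 under median centring, and Ccnd2 passed it under quantile normalization and cyclic loess, at -1.02 at the lowest. In wild type, Ccne2 reached 1.01 under cyclic loess and Cdkn1b 1.11 by the mean of all probe sets. Counts with no floor include Ccne1. Of genes higher in the knockout tumor than in the knockout gland, 2 in place of 4 remained with the floor on the mean, which left 7 of the 10 genes to compare, without Cdkn2a and Ccne2. Of genes lower in that comparison, median centring left 1 in place of 2, Ccnd3 then differing by -0.93. Of genes lower in the knockout gland, an offset of 1 gave 1 in place of 0 (Cdkn2a, at -1.16 between signals below the floor). Of genes higher in the knockout tumor, the mean of all probe sets gave 0 in place of 1 (Ccnd2, at 0.93). Taking the pooled median for the offset, Ccne2 in knockout shrank to 0.77 and Cdkn1c in wild type to -0.91. Median centring moved the median of all genes to -0.21 for the glands, 0.31 for tumor against gland in knockout and 0.10 in wild type. Over all genes, the 92 higher and 21 lower in the knockout gland became 181 and 40 at an offset of 1, 20 and 16 at the pooled median, 44 and 39 under median centring, 66 and 34 under quantile normalization, 52 and 30 under cyclic loess and 43 and 8 with the floor on the mean. In the tumors, 176 higher and 161 lower became 281 and 222 at an offset of 1, 62 and 77 at the pooled median and 107 and 98 with the floor on the mean. For tumor against gland in knockout, 1023 higher and 1479 lower became 1693 and 1027 under median centring, and 662 and 908 at the pooled median. In wild type, 1065 and 1374 became 671 and 813 at the pooled median. Over the alternatives, the E2F target list had between 2 and 7 genes higher in the knockout tumor and between 0 and 3 in the knockout gland. For tumor against gland it had between 6 and 11 higher in knockout and between 4 and 8 in wild type. Its wild-type median there lay between 0.52 and 1.14. The other G1/S regulators had between 3 and 10 higher for tumor against gland in knockout and between 2 and 5 in wild type. No paired analysis was possible because each group is 1 array. Signal over background limits Ccne1 on all arrays, Ccne2 outside the knockout tumor, Cdkn2a in the glands and Cdkn1c in the tumors.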

Other observations

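The Ink4 relatives of Cdkn2a did not share one pattern. Cdkn2c (p18Ink4c) had 835 in the knockout tumor and 587 in the wild-type tumor, against 2821 in the knockout gland and 3286 in the wild-type gland, and was 3.30-fold lower in knockout and 5.39-fold in wild type. Cdkn2b (p15Ink4b), the neighbour of Cdkn2a, had 363 in the knockout tumor and 291 in the wild-type tumor, against 98.1 in the knockout gland and 150 in the wild-type gland, both glands lying below the floor. It was 3.11-fold higher in knockout and differed by 0.84 in wild type. Cdkn2d (p19Ink4d) stayed within 2-fold in both, at -0.16 in knockout and -0.26 in wild type.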
